A study of Homo sapiens with 6 samples.

Results

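The DEAD and DEAH box RNA helicases were followed here as the protein-coding genes whose symbol is DDX or DHX with a number and an optional letter, Y-linked rows left out. This rule gave 54 genes, 38 with a DDX and 16 with a DHX symbol, among 60179 gene rows. It goes by symbol alone, so it also takes in DDX11, a DNA helicase. The 3 other rows that fit the pattern, the Y-linked DDX3Y and the pseudogenes DDX12B and DDX12P, were left out. All libraries came from HEK293T, an established line from human fetal kidney that expresses a viral T antigen. All cells, the controls included, carried the plasmids pShP2419 and pStH1169 and had spent 48 h with a serine whose side chain is masked by a group that light removes (4,5-dimethoxy-2-nitrobenzyl-L-serine, at 0.1 mM). The study followed mRNA around the deprotection of human TET2, a dioxygenase that acts on methylated cytosine in DNA. The caged group was kept from light and is labelled 0 h, and the uncaged groups had 3 min at 365 nm and then 4 h or 8 h in growth medium. Each group had 2 libraries of poly(A) RNA from 500000 sorted cells. The light, the added hours in medium and the active enzyme cannot be told apart in this design. The labels do not say whether the 2 libraries of a group were separate cultures. The spread behind each p-value is that between libraries, which may be technical.

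DEAD and DEAH box proteins use ATP to unwind RNA or to strip proteins from it, and are named after a motif of their ATPase core. They act at almost every step in the life of an RNA. DEAH box members drive the rearrangements of the spliceosome, a large group of nucleolar members matures ribosomal RNA, others export mRNA, scan leader sequences, silence transcripts in P-bodies or sense viral RNA. Many are steered by cofactors, such as G-patch proteins for DEAH box and MIF4G domain proteins for DEAD box enzymes.

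The 6 libraries held 14903812 to 17670499 gene-assigned counts, and plasmid sequences took 11.5% to 15.5% of all counts. TET2 stood at 3260 and 3294 CPM (counts per 1e6 counts, on library sizes scaled by the TMM method) in caged cells, 4096 and 4047 at 4 h and 4673 and 4410 at 8 h, on a row that shares sequence with the plasmid copy. All 8 HEK293-associated marker genes reached 1 CPM in every library, against 0 of 3 keratinocyte, 1 of 5 fibroblast, 2 of 5 leukocyte and 1 of 3 hepatocyte markers.

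Of the 54 helicases, 50 passed the filter on low counts. DDX43, DDX53, DDX60L and DHX58 did not and had at most 10 counts in any library. At 4 h, 16 of the 50 rose against caged cells and 0 fell, that is 32% called higher, where 6.16% of all 17449 features tested were called higher and 3.56% lower. At 8 h, 28 rose and 0 fell, that is 56%, against 14.9% higher and 13.2% lower among all features. Between 4 h and 8 h, 2 rose (DDX46 and DDX55) and 0 fell, against 2.05% higher and 1.21% lower among all features. In bulk RNA a change in the cells sorted and a change in RNA per cell cannot be told apart. Here a gene is said to rise or fall where the adjusted p of edgeR's quasi-likelihood test, corrected by Benjamini-Hochberg over all features tested, is under 0.05. At an unadjusted p under 0.05, 33 helicases were higher and 2 lower at 4 h (DDX10 and DDX55 lower), 33 higher and 1 lower at 8 h (DDX60 lower), and 14 higher and 3 lower between the times (DDX17, DHX33 and DHX37 lower). The share of all features at this looser threshold was not computed. These counts therefore cannot be set against the shares above. DESeq2 called 17 higher and 0 lower at 4 h, 29 and 0 at 8 h, and 8 and 0 between them. limma-voom called 16 and 0 at 4 h, 28 and 1 (DDX60) at 8 h, and 2 and 0 between them. Of all features, DESeq2 called 5.52%, 12.3% and 3.39% higher in these comparisons, and limma-voom 6.4%, 15.4% and 1.98%.

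The rises were modest in size. The called helicases had a median fold of 1.29 at 4 h, from 1.15 to 1.54, and of 1.29 at 8 h, from 1.14 to 1.65. The median log2 fold change of the 50 was 0.17 at 4 h and 0.26 at 8 h, where that of all features tested was -0.0061 and -0.0046. It was 0.10 between 4 h and 8 h, where that of all features was -0.0034. The summed level of the helicases was 7878 and 8006 CPM in caged cells, 9210 and 9260 CPM at 4 h, and 9740 and 10063 CPM at 8 h. Both uncaged groups lay above both caged libraries in this sum, and the 8 h libraries above the 4 h libraries. Most helicases were well expressed. Among the 10007 protein-coding genes with a mean of at least 10 CPM, a level chosen after seeing the data, 8.97% were called higher and 4.08% lower at 4 h and 20.6% and 16.3% at 8 h. Of the 47 helicases at that level, 34% and 59.6% were called higher. Both uncaged comparisons use the same caged libraries, so their calls are not independent: 14 helicases passed in both, 14 passed at 8 h and not at 4 h, DHX30 and DHX37 passed at 4 h and not at 8 h, and 20 passed in neither. Of these 16 with a call at 1 time, only DDX46 had a step between the times that passed. Higher at both times with no step that passed were 28% of the helicases tested and 4.73% of all features. Higher at 8 h alone, again without a step, were 26% against 8.49%, and at 4 h alone 4% against 0.911%.

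**Figure D1:**
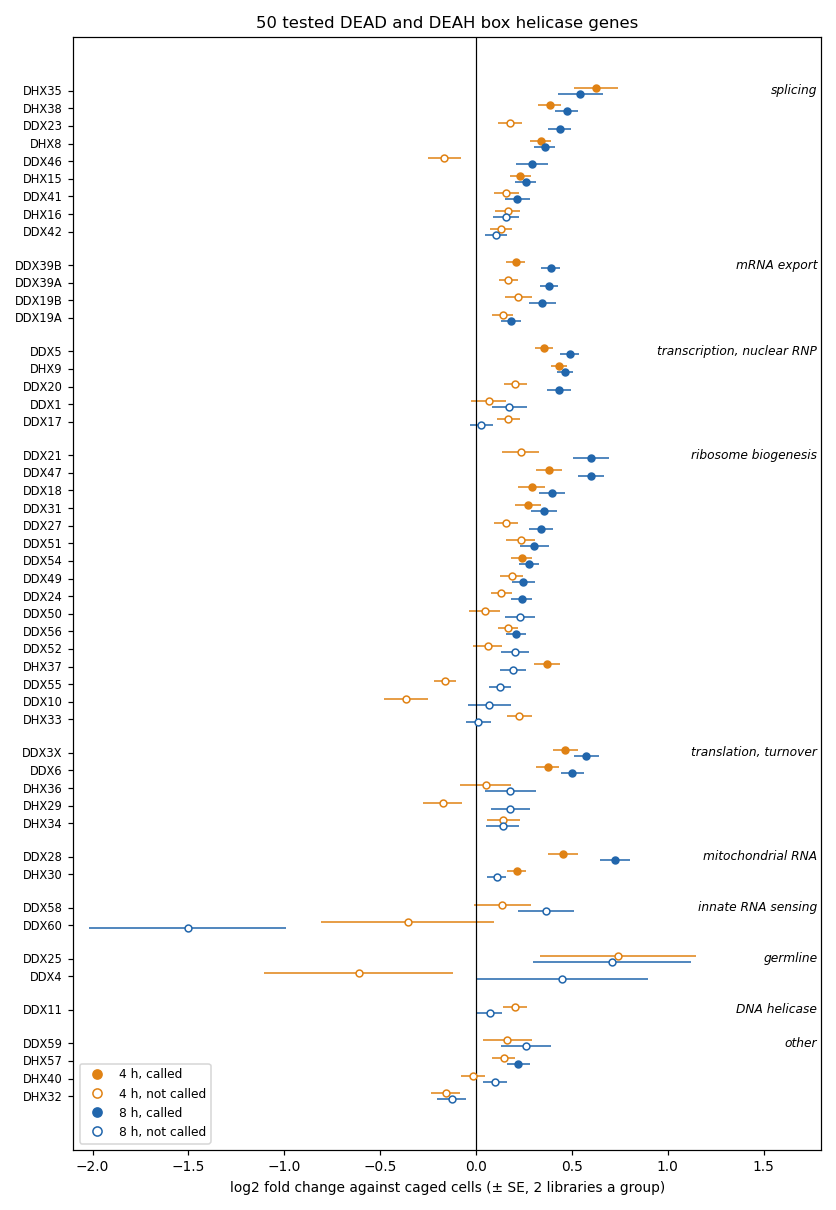
Log2 fold change (x axis, with its standard error) of the 50 tested helicases (y axis, grouped by role) at 4 h and at 8 h against caged cells, filled where called. At 8 h 48 of the 50 points lie above 0, with DDX60 and DHX32 below it; at 4 h 42 do. The counts of calls depend on scaling: under offsets from cyclic loess 9 rise at 4 h and 18 at 8 h, and DDX17 turns to a fall at 8 h. Under these offsets 4.16% of all features are called higher at 4 h and 12.1% at 8 h.

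The size of this pattern depended on how libraries were put on a common scale, while the median helicase stayed above 0 in all 3 comparisons under each scaling tried. With library totals alone, 10 helicases rose at 4 h, where 4.19% of all features were called higher. At 8 h 19 rose and 2 (DDX60 and DHX32) fell. That scaling moved the median of all features at 8 h from -0.0046 to -0.109, with the helicase median at 0.156, and left 9.14% of all features called higher and 22.3% lower. It changed the share of higher among all calls from 63.3% to 44.7% at 4 h, from 53% to 29% at 8 h and from 62.8% to 35.4% between the times. Upper-quartile factors gave 14 at 4 h and 26 at 8 h, where 5.22% and 13.6% of all features were called higher. With cyclic loess offsets 9 rose at 4 h, where 4.16% of all features were called higher. At 8 h 18 rose and DDX17 fell under these offsets, where 12.1% of all features were called higher and 10.3% lower. Offsets fitted to gene length and GC content gave 25 higher and 1 lower (DDX55) at 4 h and 39 higher at 8 h. The share of all features called higher was then larger as well, at 10.5% at 4 h and 18.9% at 8 h. With any 1 library left out, fewer helicases passed at 4 h and at 8 h, and a smaller share of all features was called higher as well. The largest share of helicase calls was lost at 4 h without a caged or a 4 h library. Such a fit leaves 1 library in a group, so its calls cannot tell a weak result from a loss of power. The helicase median with 1 library left out was 0.16 to 0.195 at 4 h, 0.23 to 0.3 at 8 h and 0.0701 to 0.117 between the times.

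**Figure D2:**
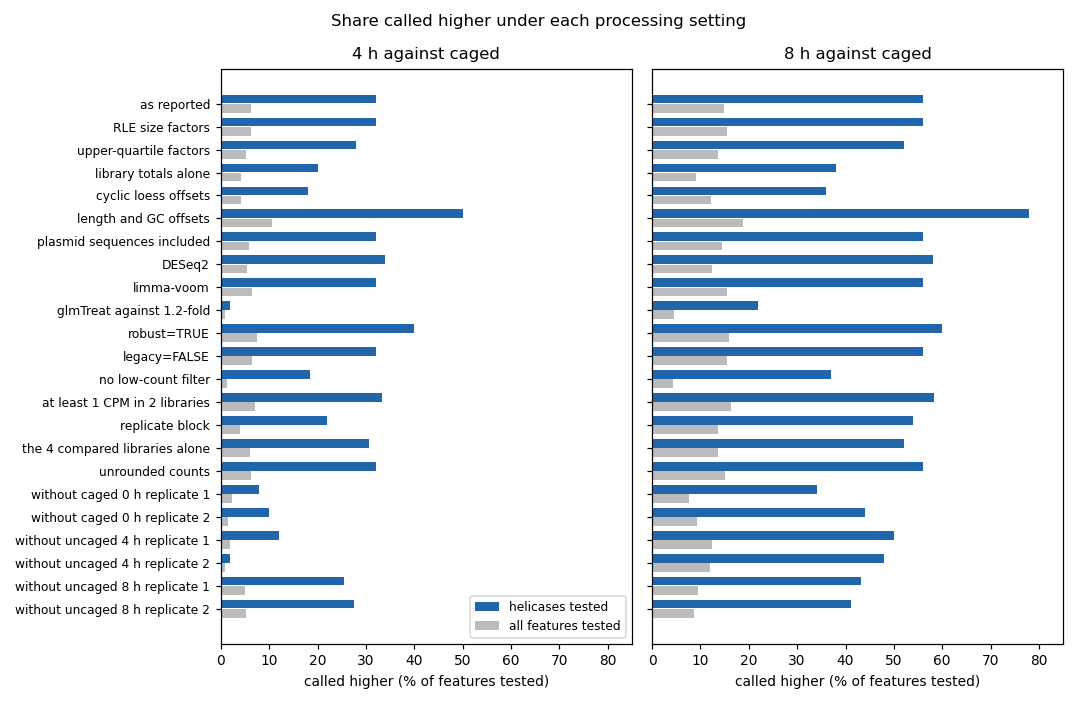
Percent of the tested helicases (blue bars) and of all features tested (grey bars) called higher under each processing setting (y axis), at 4 h (left) and 8 h (right). The helicase bar is the longer one in every setting, from 2% against 0.888% (test against a 1.2-fold change, 4 h) to 78% against 18.9% (length and GC offsets, 8 h).

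At 8 h, 15 of the 28 calls survived the removal of each library in turn. The other 13 did not: DDX51 and DDX56 passed without caged replicate 1, and DDX19A, DDX19B, DDX24, DDX31, DDX41, DDX46, DDX49, DDX54, DHX15, DHX35 and DHX57 did not. A set of 5 (DDX18, DDX27, DDX39A, DDX39B and DHX8) survived each removal and was lost under 1 other setting. The remaining 10 of the 15 also passed under each of the other 16 settings: DDX3X, DDX5, DDX6, DDX20, DDX21, DDX23, DDX28, DDX47, DHX9 and DHX38. At 4 h DHX9 alone of the 16 calls did so, and of the 2 calls between the times neither did.

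Per kilobase of exon, caged cells held most DDX39B (102 CPM per kb), followed by DDX21 (91.9), DHX9 (80.3), DDX50 (78.2) and DDX39A (59.9). Counting can affect some of these rows. In 13 of the 54 helicases, 5% or more of the exon bases lie in exons of another gene on the opposite strand, and the authors' strand setting is not known, so reads of such pairs cannot be told apart.

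RefSeq's promoter table (GRCh38.p14) held 49 of the 54 helicases; DDX18, DDX49, DDX52, DHX33 and DHX58 had no entry. A median of 20 CpG dinucleotides lay in the 250 bases before the start. Of the 46 tested members with an entry the median was 20.5, and 42 held 10 or more, a share of 91.3% where 84.6% of 11175 tested protein-coding genes did. Of those 42, 25 rose at 8 h, and of the 4 with fewer, DDX4, DDX19B, DDX60 and DHX32, DDX19B did. DDX4 had 5 to 14 counts in a library and DDX60 3 to 22, with standard errors of 0.447 and 0.514 at 8 h. At such levels a modest rise can hardly pass, so these shares cannot be set against each other. Among all features, whatever their CpG count, 14.9% were called higher at 8 h. The entry of DHX32 is at a start inside its gene. TET2 acts on methylated CpG, and methylation was not measured in these libraries. A set of 4 short motifs was searched on both strands in the same 250 bases, which can include GENCODE 29 exons, in the 49 helicases and in those 11175 genes. Unlike the 11175, the 49 include genes that were not tested (DDX43, DDX53 and DDX60L). The cAMP response element TGACGTCA lay before DDX10, DDX19A, DDX28, DDX51 and DHX36, 10.2% of the 49 against 2.91% of the genes. The ETS site CCGGAAGT was found in 7 (14.3% against 6.86%), the E-box CACGTG in 7 (14.3% against 8.80%), and the core of the interferon-stimulated response element, GAAANNGAAA, in DDX60, DDX60L and DHX15 (6.12% against 2.25%). None of the 4 strings contains another. Shown 5′ to 3′ on the gene's strand are the windows of DHX9, whose call held under every setting, DDX21, one of the largest changes at 8 h, and DHX15 and DDX60, which share the interferon motif and had 8 h changes of opposite sign (0.26, called, and -1.50, not called). They were chosen after these values were seen. Bases inside a GENCODE 29 exon were left off, and capitals mark an ETS site in DDX21 and the interferon motif in DHX15 and DDX60. The windows are chr1:182839097-182839346 (+), chr10:68955920-68956127 (+), chr4:24584555-24584804 (-) and chr4:168318808-168319002 (-).
DHX9 promoter: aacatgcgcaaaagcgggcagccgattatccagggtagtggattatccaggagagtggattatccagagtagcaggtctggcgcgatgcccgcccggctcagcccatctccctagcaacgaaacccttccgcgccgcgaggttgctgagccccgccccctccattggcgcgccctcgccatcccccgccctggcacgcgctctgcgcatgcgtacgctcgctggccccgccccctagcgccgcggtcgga
DDX21 promoter: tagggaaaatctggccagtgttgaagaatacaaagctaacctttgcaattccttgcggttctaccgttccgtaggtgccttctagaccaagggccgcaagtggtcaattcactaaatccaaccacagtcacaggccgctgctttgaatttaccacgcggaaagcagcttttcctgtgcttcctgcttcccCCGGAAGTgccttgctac
DHX15 promoter: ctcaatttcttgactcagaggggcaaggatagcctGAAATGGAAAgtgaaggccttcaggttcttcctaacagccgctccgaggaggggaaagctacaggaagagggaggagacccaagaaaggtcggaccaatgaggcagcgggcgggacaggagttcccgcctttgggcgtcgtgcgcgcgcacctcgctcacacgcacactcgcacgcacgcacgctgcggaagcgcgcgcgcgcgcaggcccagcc
DDX60 promoter: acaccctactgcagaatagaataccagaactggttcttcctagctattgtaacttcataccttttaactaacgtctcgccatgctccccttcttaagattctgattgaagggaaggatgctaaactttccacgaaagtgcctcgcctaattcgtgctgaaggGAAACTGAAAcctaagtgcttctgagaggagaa
The motif of DDX60 lies 88 to 79 bases before its RefSeq start, with a further copy at 53 to 44 bases in the part left off, that of DHX15 215 to 206 bases and that of DDX21 60 to 53 bases before the start. DHX9 held none of the 4 strings, which says only that these letters are not in this window.

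Of the splicing helicases 4 of 9 rose at 4 h and 7 of 9 at 8 h, when their median log2 fold change was 0.29, and 0 fell. Among all features 6.16% were called higher at 4 h and 14.9% at 8 h. DHX38 (PRP16, which remodels the spliceosome for the second step) had 98.4 and 93.0 CPM in caged cells, 122 and 128 at 4 h, and 131 and 135 at 8 h. No groups overlapped, and both times lay above the caged pair. Its rise was 0.38 ± 0.06 (log2, SE, here and below) at 4 h (adjusted p = 0.00911) and 0.47 ± 0.06 at 8 h (adjusted p = 0.00163). DHX8 (PRP22, which releases the spliced mRNA) went from 110 and 115 CPM to 142 and 142, then 146 and 142. The 8 h libraries overlapped the 4 h libraries and both lay above the caged ones (0.34 ± 0.05 and 0.36 ± 0.05, adjusted p = 0.00961 and 0.00295). DHX35, a lower-abundance member found in the catalytic spliceosome, had 12.3 and 12.9 CPM caged, 18.2 and 20.7 at 4 h and 19.9 and 16.9 at 8 h. Its 4 h change of 0.63 ± 0.12 (adjusted p = 0.0158) had the largest size among the called helicases at that time, but the 8 h libraries overlapped the 4 h libraries (0.54 ± 0.12 against caged, adjusted p = 0.0113). DDX23 (PRP28, which swaps U1 for U6 at the splice site) had 102 and 94.4 CPM caged, 111 and 112 at 4 h and 134 and 132 at 8 h. It did not pass at 4 h (0.18 ± 0.06) and rose at 8 h (0.44 ± 0.06, adjusted p = 0.00211). DHX15 (which disassembles the spliceosome) rose at both times by 0.23 and 0.26. DDX41 rose at 8 h by 0.22, and DHX16 and DDX42 did not pass at either time.

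DDX46 (PRP5, which acts when U2 snRNP joins the branch site) had 124 and 127 CPM caged, 116 and 108 at 4 h and 140 and 168 at 8 h. Without overlap, the 4 h libraries lay below the caged ones and the 8 h libraries above. The 4 h change was -0.17 ± 0.09 (adjusted p = 0.256), the 8 h change 0.29 ± 0.08 (adjusted p = 0.034), and the step between them 0.46 ± 0.09 (adjusted p = 0.0369). DDX55, a nucleolar helicase of large subunit assembly, had 96.0 and 98.5 CPM caged, 88.7 and 85.3 at 4 h and 107 and 106 at 8 h, again with the 4 h libraries lowest. Neither change against caged cells passed (-0.16 ± 0.06 and 0.13 ± 0.06), and the step of 0.29 ± 0.06 did (adjusted p = 0.0415). DDX10, of small subunit maturation and the longest helicase gene at 275.9 kb, had 66.6 and 68.4 CPM, then 56.0 and 48.6, then 62.3 and 79.3. Its 4 h change of -0.37 ± 0.12 (adjusted p = 0.0838) passed with the 4 compared libraries alone (adjusted p = 0.0254) and without either 8 h library. The step of DDX10, 0.44 ± 0.12, missed the threshold (adjusted p = 0.0779), as did that of DHX29, a helper of ribosome scanning, at 0.35 ± 0.10 (adjusted p = 0.0955). Of DDX55's exon bases 9.38% lie in opposite-strand exons of EIF2B1, whose own step was 0.14 and did not pass.

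**Figure D3:**
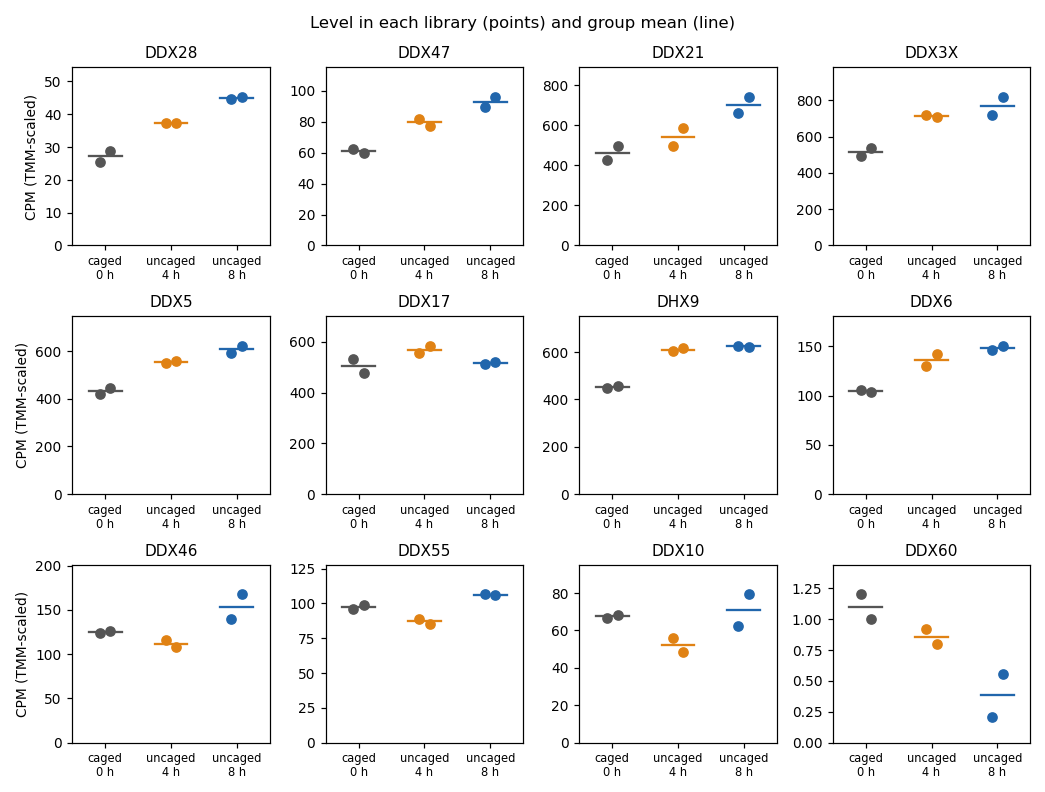
Level in CPM (y axis, from 0) of 12 helicases in the 2 libraries of each group (points) with the group mean (line). DDX28, DDX47, DDX21, DDX3X, DDX5, DHX9 and DDX6 are called at 8 h, the 8 h points of DDX17 lie between its caged ones, DDX46, DDX55 and DDX10 are lowest at 4 h, and DDX60 is near 1 CPM or below. The direction of DDX17 at 8 h turns under cyclic loess offsets.

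Ribosome biogenesis helicases had 5 of 16 higher at 4 h, 10 of 16 at 8 h and 0 lower, beside 6.16% and 14.9% of all features called higher. Their median was 0.21 and 0.24. DDX21, which couples rRNA transcription to processing, had 428 and 495 CPM caged, 499 and 587 at 4 h and 660 and 740 at 8 h. Those at 4 h began just above the caged ones, and the 8 h libraries stood clear of both. It rose by 0.60 ± 0.10 at 8 h (adjusted p = 0.00352) and stood at 0.23 ± 0.10 at 4 h (adjusted p = 0.161). Its paralogue DDX50, next to it on chromosome 10, had 199 and 222 CPM caged, then 224 and 210, then 230 and 263. DDX50 passed at neither time (0.04, and 0.23 with adjusted p = 0.0613 at 8 h). It was called higher at 8 h with DESeq2 (adjusted p = 0.0322), a robust edgeR fit (0.0417) and length and GC offsets (0.0491). Leave-outs aside, no other setting called it. Whether DDX21 and DDX50 differed in their response was not tested. The ratio of DDX21 to DDX50 was 2.15 and 2.24 in caged cells, 2.23 and 2.79 at 4 h, and 2.87 and 2.81 at 8 h. Of DDX50's 31-base words (all runs of 31 bases in its transcripts), 21.0% occur in other transcripts, chiefly its pseudogene, and of DDX21's 0%. DDX47, an rRNA processing factor, had 62.6 and 60.1 CPM caged, 82.1 and 77.7 at 4 h and 89.8 and 96.0 at 8 h, a rise of 0.38 ± 0.07 (adjusted p = 0.0131) and 0.60 ± 0.07 (adjusted p = 0.000954). DDX47 shares 34.9% of its words with APOLD1, which the test called lower at 4 h (-0.75) and at 8 h (-0.58). DDX18 and DDX31 rose at both times, by 0.29 and 0.27 and then 0.40 and 0.36, and DDX54 by 0.24 and 0.28. DDX24, DDX27, DDX49, DDX51 and DDX56 rose at 8 h by 0.21 to 0.34 and stood at 0.13 to 0.23 at 4 h without passing. None of their steps between the times passed (adjusted p from 0.138 to 0.683).

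DHX37, which releases U3 snoRNA, had 133 and 127 CPM caged, 164 and 172 at 4 h and 157 and 140 at 8 h, with the 4 h libraries highest. It rose at 4 h (0.37 ± 0.07, adjusted p = 0.0156), was 0.19 ± 0.07 at 8 h (adjusted p = 0.0686), and its step of -0.18 ± 0.07 did not pass (adjusted p = 0.17). At 8 h DHX37 passed with length and GC offsets (0.29, adjusted p = 0.00193) and with a robust edgeR fit (adjusted p = 0.0455). Its 4 h call was lost with cyclic loess offsets (0.28, adjusted p = 0.0554) and against a 1.2-fold change. DHX33 stood at 0.23 and then 0.01, with a step of -0.21 ± 0.07 (adjusted p = 0.102). DDX52 passed in no comparison.

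Among mRNA export helicases 1 of 4 rose at 4 h and all 4 at 8 h, where 6.16% and 14.9% of all features did. Their median at 8 h was 0.36. DDX39B (UAP56, which loads export adaptors on mRNA) had 739 and 691 CPM caged, 806 and 844 at 4 h and 959 and 914 at 8 h, and its paralogue DDX39A had 230 and 231, then 262 and 255, then 304 and 294. In both, the 3 groups were ordered without overlap. At 8 h they rose by 0.39 ± 0.05 and 0.38 ± 0.05 (adjusted p = 0.00152 and 0.00151). With cyclic loess offsets DDX39B stood at 0.09 (adjusted p = 0.237) and its call was lost. DDX39A then stood at 0.18 (adjusted p = 0.0295). The ratio of DDX39A to DDX39B lay between 0.302 and 0.334 in all 6 libraries. Of DDX39B's words, 27.6% also occur in a readthrough transcript with ATP6V1G2. DDX19A and DDX19B, which release mRNA at the nuclear pore, share words with a common readthrough (22.3% and 32.6%), so their counts can be split between them. DDX19B had 93.5 and 98.4 CPM, then 116 and 108, then 128 and 116, and DDX19A 132 and 128, then 144 and 142, then 147 and 148. They rose by 0.35 ± 0.07 and 0.18 ± 0.05 at 8 h (adjusted p = 0.00931 and 0.0333). With cyclic loess offsets DDX19B stood at 0.25 (adjusted p = 0.0393). The call of DDX19A was then lost (0.05, adjusted p = 0.506).

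The nuclear cofactors DDX5 and DDX17, close paralogues that act in transcription and splicing, had different values. DDX5 had 421 and 446 CPM caged, 549 and 558 at 4 h and 592 and 623 at 8 h. DDX17 had 534 and 479, then 554 and 585, then 515 and 519. DDX5 rose by 0.35 ± 0.05 (adjusted p = 0.00561) and 0.49 ± 0.05 (adjusted p = 0.000631), and DDX17 stood at 0.17 ± 0.06 and 0.03 ± 0.06 (adjusted p = 0.108 and 0.744). The ratio of DDX5 to DDX17 was 0.788 and 0.930 caged, 0.991 and 0.953 at 4 h, and 1.150 and 1.201 at 8 h. Caged and 8 h ratios did not overlap, and the difference between the 2 genes' responses was not tested. Of DDX5's exon bases 6.85% lie in opposite-strand exons of CEP95, which stood at -0.22 at 4 h and rose by 0.25 at 8 h. The summed level of DDX5 and DDX17 was 925 and 955 CPM in the caged libraries and 1104 to 1142 CPM in the uncaged ones. DHX9, an RNA helicase that bridges transcription factors to RNA polymerase and unwinds R-loops, had 448 and 458 CPM caged, 606 and 617 at 4 h and 627 and 623 at 8 h. It had the smallest adjusted p among helicases at both times, with 0.43 ± 0.04 (adjusted p = 0.00181) and 0.46 ± 0.04 (adjusted p = 0.000392). DDX20 (Gemin3, of the SMN complex) rose at 8 h by 0.43 ± 0.06 (adjusted p = 0.00233), and DDX1 did not pass.

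Of 5 translation and turnover helicases, DDX3X and DDX6 rose at both times and DHX29, DHX34 and DHX36 at neither. The shares of all features called higher were 6.16% at 4 h and 14.9% at 8 h. DDX3X (which opens structured leaders and takes part in innate signalling) had 496 and 537 CPM caged, 717 and 710 at 4 h and 722 and 818 at 8 h. Both uncaged groups lay above the caged ones, and the change was 0.47 ± 0.07 at 4 h (adjusted p = 0.00581) and 0.58 ± 0.07 at 8 h (adjusted p = 0.000997). DDX6, which represses mRNA and promotes its decapping in P-bodies, had 106 and 104 CPM, then 130 and 142, then 147 and 151. It rose by 0.37 ± 0.06 (adjusted p = 0.0104) and 0.50 ± 0.06 (adjusted p = 0.00129).

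The mitochondrial DDX28, which assembles the mitochondrial large ribosomal subunit, had the largest change of any called helicase at 8 h. It had 25.6 and 28.9 CPM caged, 37.2 and 37.4 at 4 h and 44.7 and 45.2 at 8 h. Each group lay above the one before without overlap. DDX28 rose by 0.45 ± 0.08 at 4 h (adjusted p = 0.013) and 0.72 ± 0.08 at 8 h (adjusted p = 0.000909). It is a 2.17 kb gene at chromosome 16, 68021274 to 68023442, on the minus strand, and 22.5% of its exon bases lie in exons of DUS2 on the opposite strand. DUS2 stood at -0.25 at 4 h and -0.09 at 8 h and passed at neither time. The estimated counts of DDX28 were not whole in 6 of 6 libraries, by more than 0.01. DHX30, of mitochondrial ribosome assembly, passed at 4 h (0.21 ± 0.05, adjusted p = 0.0333) and not at 8 h (0.11). Its step of -0.10 did not pass (adjusted p = 0.249), and with length and GC offsets it was also called at 8 h.

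Of the 4 RNA sensors 2 were tested and 0 passed. DDX58 (RIG-I) had 10.6 and 12.8 CPM caged, 14.3 and 11.5 at 4 h and 14.2 and 15.9 at 8 h, and passed at neither time (0.14 and 0.36 ± 0.15, adjusted p = 0.0948 at 8 h). It was called higher at 8 h with cyclic loess offsets (0.54, adjusted p = 0.0298) and with length and GC offsets (0.37, adjusted p = 0.036). DHX58 (LGP2) was at 0.329 to 0.662 CPM. DDX60, an interferon-stimulated helicase, had 22 and 18 counts caged, 14 and 12 at 4 h and 3 and 8 at 8 h. Its 8 h libraries were lowest, and its change of -1.50 ± 0.51 missed the threshold (adjusted p = 0.0592). DDX60 passed with limma-voom (-1.57, adjusted p = 0.0456), with a robust edgeR fit (adjusted p = 0.0457) and with library totals alone (-1.61, adjusted p = 0.0431). DDX60L reached at most 4 counts. The germline helicases DDX4 and DDX25 were at 0.331 to 0.928 CPM over the libraries, and DDX43 and DDX53 at 2 counts or fewer. Of the 4 other or less studied helicases, 0 rose at 4 h and 1, DHX57, at 8 h (0.22). The DNA helicase DDX11 passed in no comparison.

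**Figure D4:**
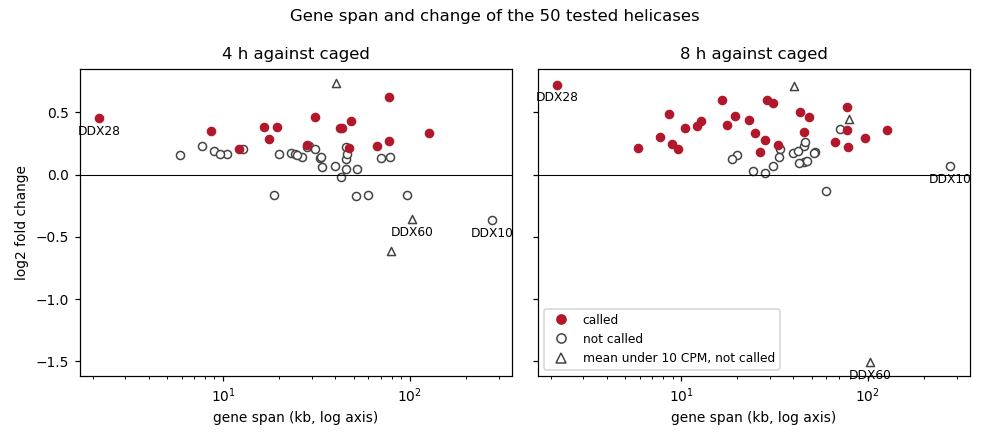
Gene span in kb (x axis, log scale) against log2 fold change (y axis) of the 50 tested helicases at 4 h (left) and 8 h (right) against caged cells, red where called and triangles for members with a mean under 10 CPM. The shortest gene, DDX28, is called at both times, and the longest, DDX10, lies below 0 at 4 h (-0.37) and just above it at 8 h (0.07).

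Across the 50 helicases, which are not independent replicates and share the same libraries, Spearman's rho between gene span and the 4 h change was -0.317, where it was -0.0735 over 13968 protein-coding genes tested. With the 8 h change it was -0.215 against -0.156. Other properties moved with the 4 h change as well: rho was 0.332 for GC content, against 0.137 over those genes, and 0.227 for mean level, against 0.276. With the 8 h change rho was -0.0319 for GC content, against -0.0353, and 0.0319 for mean level, against 0.289. Their part in the relation with span was not tested. DHX8, the largest called gene at 126.5 kb, rose at both times.

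Among the cofactors that steer these enzymes, G-patch proteins bind DEAH box enzymes. Of 23 tested, 7 rose at 4 h, 15 at 8 h and 4 between the times, and 0 fell, where 6.16%, 14.9% and 2.05% of all features were called higher and 3.56%, 13.2% and 1.21% lower. At 8 h SON, a splicing speckle protein, rose by 0.65 ± 0.05 (adjusted p = 0.000272), RBM5 by 0.63 ± 0.06, TFIP11, the partner of DHX15, by 0.61 ± 0.06, and GPATCH1, a partner of DHX35, by 0.53 ± 0.07. Their median was 0.36 at 8 h. The G-patch count at 4 h was 4 without caged replicate 1, 2 without caged replicate 2, 3 without 4 h replicate 1 and 1 without 4 h replicate 2. Between the times it was 2 without either caged library, 1 without 8 h replicate 1 and 0 without any other library.

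Of 11 MIF4G and related cofactors, 5 rose and 1 (CWC22) was called lower at 4 h, and 7 rose and 0 fell at 8 h, beside the same shares of all features. EIF4G2 rose by 0.39 and 0.57, and CNOT1, the deadenylase scaffold that binds DDX6, by 0.37 and 0.24. CWC22, which brings a DEAD box protein to the spliceosome, stood at -0.58 ± 0.14 at 4 h (adjusted p = 0.0422), a call lost with DESeq2, limma-voom, cyclic loess offsets, a test against a 1.2-fold change, no low-count filter and the replicate block, and without any caged or 4 h library. Between the uncaged groups CWC22 was 0.98 ± 0.14 higher at 8 h (adjusted p = 0.025), the 1 call of the list in that comparison, and the list had 0 without either 4 h library or 8 h replicate 2. The 5 higher at 4 h became 3 with each caged and each 4 h library left out in turn.

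Among 11 P-body partners of DDX6, 3 were called higher at each time, DCP1A (0.34 and 0.41), PATL1 (0.27 and 0.24) and EDC3 (0.27 and 0.27), where 6.16% and 14.9% of all features were. At 4 h the count was 1 without either caged library or 4 h replicate 1 and 0 without 4 h replicate 2, and at 8 h it was 1 without caged replicate 1. Of 12 TREX partners of DDX39A and DDX39B, CHTOP and POLDIP3 were called higher at 4 h (0.37 and 0.30) and THOC2 lower (-0.61). Among all features 6.16% were called higher and 3.56% lower at 4 h, and 14.9% higher at 8 h. The call of THOC2 was lost with a robust edgeR fit, a test against a 1.2-fold change, no low-count filter and the replicate block, and without either caged library or 4 h replicate 2. Without each of those 3 libraries 1 TREX partner was called higher at 4 h. At 8 h 5 rose, among them ZC3H11A (0.89 ± 0.12) and ALYREF (0.37 ± 0.06), and 3 without caged replicate 1. The 2 TREX calls between the times, beside 2.05% of all features called higher, were lost whichever library was left out.

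Of 19 related helicases under other symbols, 5 rose at 4 h, and at 8 h 8 rose and 1 (MOV10, -0.23) was called lower. Among all features 6.16% were called higher at 4 h, and 14.9% higher and 13.2% lower at 8 h. SNRNP200 (BRR2, which unwinds U4/U6) had 0.34 and 0.23, EIF4A1 0.24 and 0.30, and SUPV3L1, of the mitochondrial degradosome, 0.26 and 0.51. The 4 h count was 3 without caged replicate 1, 1 without caged replicate 2, 2 without 4 h replicate 1 and 0 without 4 h replicate 2. At 8 h, 5 rose without caged replicate 2, and the call of MOV10 was lost without caged replicate 1 or 8 h replicate 1.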

How the data were processed

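Gene-level estimated counts were deposited by the authors for 6 libraries, and per the submitters' processing notes Salmon 1.1.0 on GRCh38 and R 3.6.1 with DESeq2 were used, with an annotation release and strand setting not given in the sources used here. Gene names and positions come from GENCODE 29, which matched 58083 of 60179 gene rows. Estimated counts were rounded, filtered (filterByExpr, minimum count 10), scaled by TMM and fitted with edgeR 4.0.16 (R 4.3.3; quasi-likelihood, all 6 libraries, no covariate), with p-values adjusted over 17449 features. Plasmid rows were left out. A count of 3 corresponds to 0.164 to 0.21 CPM. Replicates differed beyond counting noise (chi-square per degree of freedom 3.65 to 4.31). The script was tested on simulated data. Per-library values are given for the called helicases of largest change, for paralogue pairs, DDX3X and DDX6, and log2 changes for at most 4 cofactors per list and comparison; DDX10 was chosen after its values were seen. Members and lists were chosen with earlier results of these data known. Alternatives: 16 settings with DESeq2 1.42.0 and limma 3.58.1, and 6 leave-outs.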

Additional observations from a re-analysis of the deposited data

Results flagged for a closer look

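The levels of DDX46 and DDX55 at 4 h and 8 h differed by a test of that difference itself, with log2 steps of 0.46 (0.4588, adjusted p = 0.0369) for DDX46 and 0.29 (0.2858, adjusted p = 0.0415) for DDX55. Both had their lowest level at 4 h. Without either caged library, either 4 h library or 8 h replicate 2, neither step passed, and that of DDX55 did not pass without 8 h replicate 1 either. Neither passed against a 1.2-fold change, without the low-count filter or with the replicate block, and that of DDX55 did not pass with library totals alone, cyclic loess offsets or the 4 compared libraries alone.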

How the results depend on the processing

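At 4 h, 16 helicases rose; the count was 10 with library totals alone, 9 with cyclic loess offsets, 25 with length and GC offsets, 1 when tested against a 1.2-fold change, 10 without the low-count filter, and 1 to 14 when 1 library was left out. At 8 h, 28 rose; the count was 18 with cyclic loess offsets, 11 against a 1.2-fold change, and 17 to 25 with 1 library left out. Against 0 falls, 1 helicase was called lower at 4 h with length and GC offsets, 1 with the 4 compared libraries alone and 0 to 1 with 1 library left out, and at 8 h 2 with library totals alone and 1 each with cyclic loess, limma-voom and a robust fit. Between 4 h and 8 h, 2 rose; the count was 1 with library totals, 1 with cyclic loess, 7 with length and GC offsets, 8 with DESeq2, 0 against a 1.2-fold change, 5 with a robust fit, 0 without the low-count filter, 1 with the 4 compared libraries alone, and 0 to 3 with 1 library left out. The share of all features called higher between the times was 2.05%. It was 4.35% with length and GC offsets, 3.39% with DESeq2 and 3.62% with a robust fit. DDX17 at 8 h turned to -0.23 (adjusted p = 0.03) with cyclic loess offsets. The cofactor lists moved as follows, with related helicases under other symbols called related. Higher at 4 h: G-patch (7) 3 with cyclic loess, 0 against 1.2-fold, 3 without the low-count filter and 1 to 6 with 1 library left out; MIF4G (5) 0 against 1.2-fold and 3 to 4 left out; P-body (3) 1 with cyclic loess, 0 against 1.2-fold, 1 without the filter and 0 to 3 left out; TREX (2) 1 with cyclic loess, 0 against 1.2-fold and 1 to 2 left out; related (5) 1 with cyclic loess, 9 with length and GC offsets, 0 against 1.2-fold and 0 to 6 left out. Lower at 4 h: MIF4G (1) 0 with cyclic loess, DESeq2, limma-voom, 1.2-fold, no filter or the replicate block and 0 to 1 left out; TREX (1) 0 with 1.2-fold, a robust fit, no filter or the replicate block and 0 to 1 left out. Higher at 8 h: G-patch (15) 5 against 1.2-fold; MIF4G (7) 4 with totals, 3 with cyclic loess and 2 against 1.2-fold; P-body (3) 1 with totals, cyclic loess or 1.2-fold, 6 with length and GC offsets and 1 to 3 left out; TREX (5) 3 with totals, 2 against 1.2-fold and 3 to 5 left out; related (8) 5 with totals, 3 with cyclic loess, 2 against 1.2-fold and 5 to 8 left out. Lower at 8 h: P-body (0) 1 with totals or length and GC offsets; TREX (0) 1 with totals; related (1) 2 with totals or cyclic loess, 0 against 1.2-fold and 0 to 1 left out. Higher between the times: G-patch (4) 2 with cyclic loess, 7 with length and GC offsets, DESeq2 or a robust fit, 0 with 1.2-fold or no filter, 1 with the block and 0 to 2 left out; MIF4G (1) 3 with length and GC offsets, 2 with DESeq2, 0 with 1.2-fold or no filter and 0 to 1 left out; TREX (2) 1 with upper-quartile factors, totals, cyclic loess, the block or the 4 compared libraries, and 0 with 1.2-fold, no filter or any library left out; related (0) 1 with length and GC offsets or a robust fit, 2 with DESeq2 and 0 to 1 left out. MIF4G had 1 lower between the times with cyclic loess, against 0. The cause was not tested. With the replicate block the helicase counts were 11, 27 and 1. The deviations of same-numbered libraries from their group means had r of 0.00081, 0.0474 and -0.05, so no shared deviation was seen. With 2 libraries a group this cannot tell whether same-numbered libraries were handled as pairs. Leaving out a library leaves 1 in its group. In each such fit the share of all features called higher at 4 h and at 8 h was also below that with all 6 libraries. With 2 libraries a group, a helicase that did not pass is not shown to be unchanged.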
